A study of Homo sapiens with 12 samples.

Results

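The genes described here are the AP-1 and EGR immediate early transcription factors: FOS, FOSB, FOSL1 and FOSL2 of the FOS family, JUN, JUNB and JUND of the JUN family, and EGR1 and EGR3 of the EGR family. They were chosen by name, as all probe sets whose symbol in the platform's gene table is one of these. Of 10 genes listed, 9 have a probe set in that table, and EGR2 is not analysed here. These 9 genes have 33 probe sets among the 49395 of the array, 23 for AP-1 genes and 10 for EGR genes. All 33 had a mean log2 value over the 12 arrays at or above 4.48, the 30th percentile of probe sets that are not controls. Messenger RNA of THP-1, a human monocytic leukaemia cell line that becomes macrophage-like under the phorbol ester PMA, was measured on Affymetrix PrimeView arrays in 4 groups of 3. All groups received PMA at 100 ng/ml for 48 hours. In the temperature experiment, cells at 40 °C, a fever-like temperature, were compared with cells at 37 °C. In the inhibitor experiment, per the labels' protocols, cells differentiated at 40 °C were nucleofected with a hairpin inhibitor of a microRNA plus a plasmid encoding GFP, and GFP-positive cells were sorted after 24 hours. The arrays of that experiment are labelled siThermomir, called thermomiR inhibitor cells here, or control, while their titles say siRNA and WT. The labels do not state which of miR-142, miR-143 or ThermoMIR-1 was blocked, whether the control cells were nucleofected, received the non-human control inhibitor or were sorted, or which of the harvests at 2, 8 and 24 hours at 40 °C the arrays hold. THP-1 is a single leukaemia line, and no label says that replicates were separate cultures, so p-values reflect array-to-array spread within a group only, and that spread may be technical. The number of arrays, 3 in each group, limits the precision.

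AP-1 is a dimer of basic leucine zipper proteins, in which a JUN protein pairs with a FOS protein, another JUN or a related factor and binds the sites TGANTCA or TGACGTCA. EGR proteins are zinc finger factors that bind GC-rich sites such as GCGTGGGCG. FOS, JUN, JUNB, FOSB, EGR1 and EGR3 are classical immediate early genes: kinase signalling switches them on within minutes without new protein synthesis. For some of them this acts in part through serum response factor (SRF) and ternary complex factors bound at CArG boxes in the promoter. Their transcripts are short-lived. In monocytes, phorbol esters activate protein kinase C and induce both families, and AP-1 and EGR1 are known for their part in macrophage differentiation.

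Promoter sequence from RefSeq (GRCh38.p14) was searched on both strands in windows of 250 bases before to 50 after each gene's start, and 8 of 9 members looked up matched a window. FOSL1 has no window in the table, and EGR3 was not looked up. The 250 bases before the EGR1 start (chr5:138465229-138465478, + strand) and the FOS start (chr14:75278578-75278827, + strand) are shown because EGR1 differed between temperatures and FOS between thermomiR inhibitor and control cells. Capitals mark CArG boxes, of which the EGR1 stretch held a pair, beginning 105 and 83 bases before the start.
EGR1: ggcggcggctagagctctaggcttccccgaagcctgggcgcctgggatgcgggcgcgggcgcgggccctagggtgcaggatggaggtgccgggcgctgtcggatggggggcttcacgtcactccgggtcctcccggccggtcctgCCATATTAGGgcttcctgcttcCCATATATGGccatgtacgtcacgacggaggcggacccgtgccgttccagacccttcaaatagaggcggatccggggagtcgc
FOS: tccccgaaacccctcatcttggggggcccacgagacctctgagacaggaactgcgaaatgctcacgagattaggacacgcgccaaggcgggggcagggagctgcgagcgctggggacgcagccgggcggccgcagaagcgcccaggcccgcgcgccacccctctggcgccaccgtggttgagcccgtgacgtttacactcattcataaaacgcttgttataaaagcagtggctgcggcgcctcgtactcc
The FOS stretch and the windows of FOSB, JUN and JUNB held none of the 4 motifs searched. This says only that these letters are not in these windows. A CArG box was found in 1.29% of the 35116 promoter windows in the table, TGANTCA in 7.71%, TGACGTCA in 1.85% and GCGTGGGCG in 0.795%. FOSL2 and JUND also held an AP-1 site, shown in capitals because AP-1 genes are known to be regulated by AP-1 itself. The FOSL2 site starts at base 5, counted from and including the gene's start base (stretch shown: chr2:28392851-28392880, + strand). The JUND site starts 200 bases before the gene's start (stretch shown: chr19:18281804-18281833, − strand).
FOSL2: tgccattgtagTGACTCAtctcgggcagag
JUND: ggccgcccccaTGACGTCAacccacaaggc
The 2 AP-1 motifs did not overlap in these windows, and a match is a description of the sequence only. EGR2, which has no probe set here, held a CArG box 71 bases before its start in 1 of its 3 windows.

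At 40 °C against 37 °C, FOSL2 and JUN rose and EGR1 and EGR3 fell, while FOS, FOSB, FOSL1, JUNB and JUND did not pass the test. In thermomiR inhibitor against control cells, FOS rose most of the 9 genes, FOSL2, JUN, FOSL1, EGR3 and JUNB rose by less, and FOSB, JUND and EGR1 did not pass. These calls use the brightest probe set of each gene and limma's test with Benjamini-Hochberg adjustment over 13909 genes, at an adjusted p under 0.05. By temperature, 2 members were called higher, where 21.6% of all genes were, and 2 lower, where 17.7% were, so the share of members called by temperature was near that of all genes. By inhibitor, 6 were called higher and none lower, beside 25.7% and 19.6% of all genes. That direction depends on the probe set, and 3 of the 4 JUN probe sets were called lower. With the most variable probe set of each gene, 5 were called higher and 3 lower (JUN, FOSL2 and EGR1). Over all 12573 genes of that fit, 2790 were called higher and 2889 lower. On the brightest probe sets, the members' median log2 difference was 0.02 by temperature and 0.38 by inhibitor, against 0.01 and 0.09 over all genes.

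Over all probe sets, 8 of 33 were called higher and 7 lower at 40 °C, beside 12.8% and 11.8% of the 49293 probe sets that are not controls. In thermomiR inhibitor cells, 18 of 33 were called higher and 5 lower, beside 14.8% and 15.2% of all. These shares include dim probe sets below the filter value, which all 33 members reached as a mean over the 12 arrays. FOSL1 11760284_a_at reached it through thermomiR inhibitor and control cells, and was below it at 40 °C (mean 4.31) and 37 °C (4.22). With the filter, 6823 of 34507 probe sets were called higher and 6039 lower at 40 °C. By inhibitor 7355 and 7512 of the 34507 were, and the member counts were the same with the filter. Probe sets of 1 gene share a transcript and are not replicates of each other. By temperature the called probe sets of JUN (4), FOSL2 (4) and EGR1 (6) each went 1 way, as did those of FOS (4) and FOSL1 (5) by inhibitor. For JUN, FOSL2 and EGR1 by inhibitor, probe sets were called in opposite directions, so the calls of these genes in that comparison depend on the probe set.

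**Figure D1:**
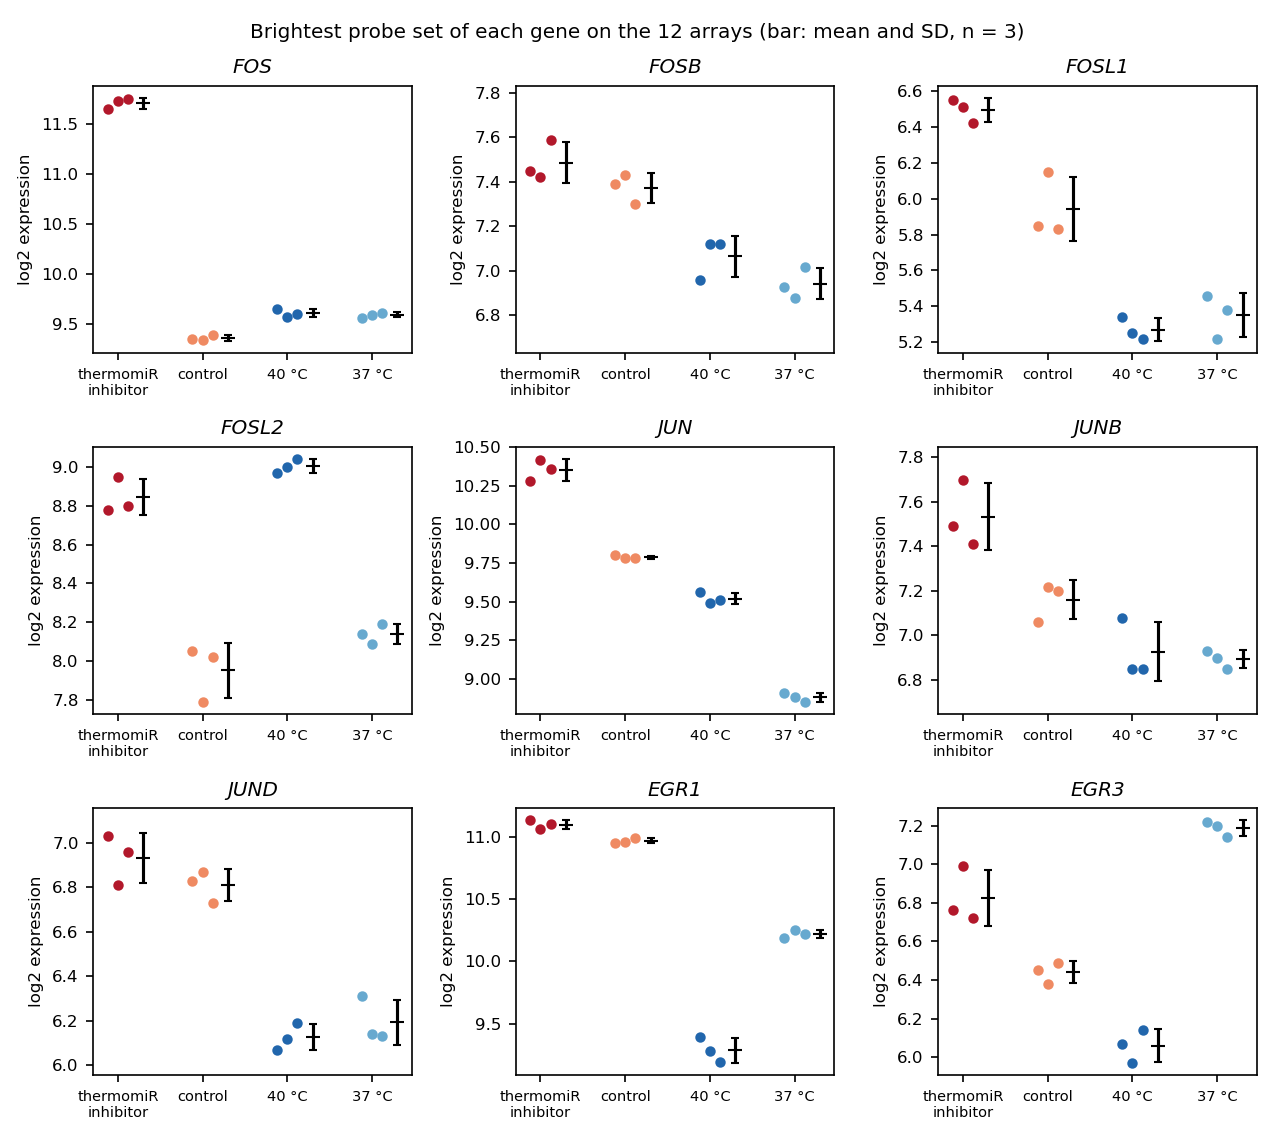
Log2 value (y axis) on each array of the brightest probe set of the 9 genes, 1 panel per gene, with thermomiR inhibitor, control, 40 °C and 37 °C cells from left to right; points are arrays and bars are the mean ± SD of 3 arrays. FOS lies between 11.65 and 11.75 in thermomiR inhibitor cells and between 9.33 and 9.65 in the other groups, and EGR1 is lowest in 40 °C cells, at 9.19 to 9.39.

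FOS, whose protein cannot pair with itself and needs a JUN partner to bind DNA, differed between thermomiR inhibitor and control cells on all 4 of its probe sets. On the brightest (11734659_a_at) the log2 values were 11.65, 11.73 and 11.75 in thermomiR inhibitor cells, against 9.35, 9.33 and 9.39 in control cells. The groups did not overlap, and the difference was 2.35 (SE 0.06, adjusted p = 1.30e-06), or 5.11-fold higher. On 11749291_a_at the values were 10.93, 10.96 and 10.91 in thermomiR inhibitor cells and 8.43, 8.37 and 8.41 in control cells, a 5.78-fold difference. On 11749852_s_at they were 9.98, 9.91 and 9.85 in thermomiR inhibitor cells and 7.50, 7.54 and 7.53 in control cells, 5.24-fold higher. The dimmest, 11734658_s_at, gave the smallest difference, 3.41-fold, with 1 thermomiR inhibitor array, at 8.88, below the others at 9.36 and 9.35. By temperature FOS was nearly level: the brightest probe set had 9.65, 9.57 and 9.60 in 40 °C cells and 9.56, 9.59 and 9.61 in 37 °C cells. The groups overlapped, the difference was 0.02 (95% interval -0.08 to 0.12, adjusted p = 0.768), and none of the 4 probe sets was called. A test of whether the inhibitor difference equals the temperature difference, over all 12 arrays, gave 2.33 (SE 0.065, adjusted p = 5.51e-10) for FOS.

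FOSB, a close relative of FOS, gave no call on its brightest probe set (11717344_x_at) in either experiment. Its values were 7.45, 7.42 and 7.59 in thermomiR inhibitor cells and 7.39, 7.43 and 7.30 in control cells, which overlapped (difference 0.11, 95% interval -0.05 to 0.28, adjusted p = 0.226). The dimmer probe set (11717345_a_at) had 6.19, 6.36 and 6.35 in thermomiR inhibitor cells against 5.69, 5.87 and 5.62 in control cells, without overlap, and was called (difference 0.57, SE 0.09, adjusted p = 0.00250). A FOSB call by inhibitor therefore rested on the dimmer of its probe sets, and with the mean of both the difference was 0.34 (adjusted p = 0.00468). At 40 °C against 37 °C the differences were 0.12 and -0.09, and neither was called.

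FOSL1 (FRA-1) and FOSL2 (FRA-2) encode FOS-related proteins without the strong activating region of FOS, and their induction usually follows that of FOS. FOSL1 values on the brightest probe set (11760574_x_at) were 6.55, 6.51 and 6.42 in thermomiR inhibitor cells against 5.85, 6.15 and 5.83 in control cells. The groups did not overlap, and FOSL1 was 1.46-fold higher (log2 difference 0.55, SE 0.10, adjusted p = 0.00287). Of its 6 probe sets, 5 were called higher, with log2 differences over all 6 of 0.30 to 0.79. The calls of 11760284_a_at and 11724477_a_at were lost when single arrays were left out (adjusted p up to 0.121 and 0.0893). None of the 6 was called by temperature, where the brightest had 5.34, 5.25 and 5.22 in 40 °C cells and 5.46, 5.22 and 5.38 in 37 °C cells. The inhibitor difference exceeded the temperature difference by 0.63 for FOSL1 (SE 0.12, adjusted p = 0.00139).

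FOSL2 was higher at 40 °C and, on most probe sets, higher in thermomiR inhibitor cells. The brightest probe set (11763171_at) had 8.97, 9.0 and 9.04 in 40 °C cells against 8.14, 8.09 and 8.19 in 37 °C cells. The 2 groups lay far apart for their spread, and FOSL2 was 1.82-fold higher (log2 difference 0.86, SE 0.05, adjusted p = 1.22e-05), with 4 of its 5 probe sets called higher and log2 differences of 0.17 to 0.86. In the inhibitor experiment this probe set had 8.78, 8.95 and 8.80 in thermomiR inhibitor cells and 8.05, 7.79 and 8.02 in control cells, 1.85-fold higher (log2 difference 0.89, SE 0.09, adjusted p = 0.000231). On 11763170_s_at the difference by inhibitor was larger, at 2.57-fold, and on 11763169_at it was 2.12-fold. One probe set, 11731599_a_at, went the other way: its values were 7.88, 8.0 and 8.0 in thermomiR inhibitor cells against 8.46, 8.36 and 8.49 in control cells, 1.39-fold lower (log2 difference -0.48, SE 0.08, adjusted p = 0.00254). The difference of the 2 differences depended on the probe set: it was 0.03 on the brightest (95% interval -0.20 to 0.25, adjusted p = 0.854), 0.24 with the mean of the 5 (adjusted p = 0.0122) and -0.99 on the most variable, 11731599_a_at (adjusted p = 2.89e-06).

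JUN, the founding JUN protein and a phosphorylation target of JUN N-terminal kinases, rose with temperature on all 4 of its probe sets, by 1.42-fold to 1.84-fold. Its brightest probe set (11718397_s_at) had 9.56, 9.49 and 9.51 in 40 °C cells against 8.91, 8.88 and 8.85 in 37 °C cells. No array of one group reached the other, and the difference was 0.64 (SE 0.04, adjusted p = 3.52e-05). On 11718396_x_at, with the largest difference, the values were 7.49, 7.27 and 7.14 in 40 °C cells and 6.55, 6.50 and 6.22 in 37 °C cells, 1.84-fold higher. In the inhibitor experiment the probe sets of JUN disagreed: 1 was called higher and 3 lower. The brightest had 10.28, 10.42 and 10.36 in thermomiR inhibitor cells against 9.80, 9.78 and 9.78 in control cells, 1.48-fold higher (log2 difference 0.57, SE 0.06, adjusted p = 0.000290). The next, 11718394_at, had 9.87, 9.92 and 9.84 in thermomiR inhibitor cells against 10.26, 10.24 and 10.18 in control cells, 1.27-fold lower (log2 difference -0.35, SE 0.07, adjusted p = 0.00710). Neither pair of groups overlapped, so 2 probe sets assigned to JUN differed in direction by more than the spread between arrays. The decreases on 11718395_s_at (log2 difference -0.51, adjusted p = 0.0307) and 11718396_x_at (-0.49, adjusted p = 0.0390) were lost when single arrays were left out, with adjusted p up to 0.102 and 0.115. With the mean of the 4 probe sets JUN did not pass (difference -0.20, adjusted p = 0.0962). The difference between the 2 experiments for JUN was likewise not called on the brightest probe set (-0.07, 95% interval -0.22 to 0.07, adjusted p = 0.409), but was called with the mean of its probe sets (-0.90, adjusted p = 5.68e-05).

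**Figure D2:**
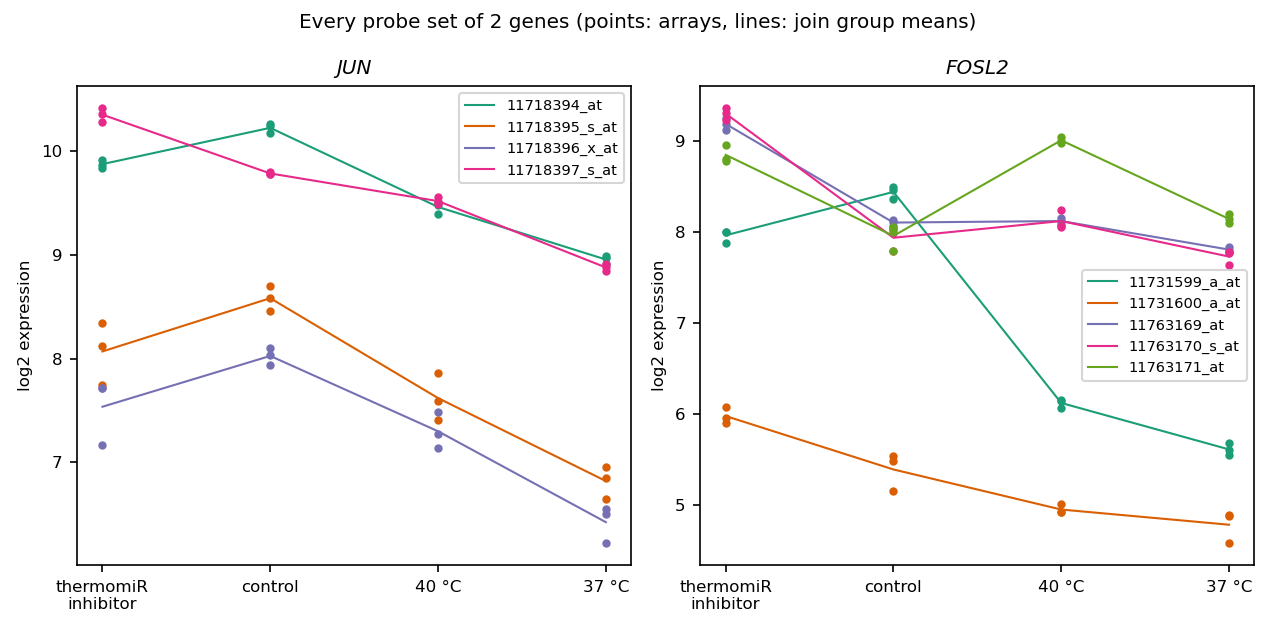
Log2 value (y axis) of every probe set of JUN (left) and FOSL2 (right) in thermomiR inhibitor, control, 40 °C and 37 °C cells (x axis); points are arrays and lines join the group means of a probe set. In thermomiR inhibitor against control cells 1 JUN probe set is higher and 3 are lower, and 4 FOSL2 probe sets are higher and 1 is lower, while at 40 °C all lie above their 37 °C values.

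The 5 probe sets that were called lower in thermomiR inhibitor cells belong to JUN (3), FOSL2 (1) and EGR1 (1). Each array also carries measures of RNA quality. The 3 prime minus 5 prime difference of ACTB probe sets was 2.70 ± 0.16 in thermomiR inhibitor cells and 2.44 ± 0.09 in control cells, and that of GAPDH was 0.72 ± 0.09 in thermomiR inhibitor cells and 1.04 ± 0.04 in control cells (log2, SD, n = 3 each). In the temperature experiment the ACTB measure was 1.58 ± 0.22 at 40 °C and 1.55 ± 0.04 at 37 °C. The mean of 27 poly-A spike probe sets, RNAs added before labelling, was 5.55 ± 0.23 in thermomiR inhibitor cells and 6.65 ± 0.31 in control cells, against 7.24 ± 0.03 at 40 °C and 7.17 ± 0.03 at 37 °C. The part of the 3 prime measures in the results was not tested, and the positions of the probe sets in their transcripts were not used here. With that spike mean as a covariate in the fit, calls by inhibitor fell to 43 higher and 158 lower of all 13909 genes, from 3568 and 2722 without it, and 1 of the 9 members, FOS, was called, with log2 differences of 1.06 for FOSL1 (adjusted p = 0.0528), 0.64 for FOSL2 (0.227), 0.54 for JUN (0.189), 0.70 for JUNB (0.174) and 0.43 for EGR3 (0.409).

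JUNB and JUND, JUN relatives of which JUNB is inducible and JUND is present in most resting cells, have 1 probe set each, and neither was called by temperature. JUNB had 7.49, 7.70 and 7.41 in thermomiR inhibitor cells against 7.06, 7.22 and 7.2 in control cells, 1.30-fold higher without overlap (log2 difference 0.37, SE 0.09, adjusted p = 0.0120). JUND had 7.03, 6.81 and 6.96 in thermomiR inhibitor cells and 6.83, 6.87 and 6.73 in control cells, which overlapped (difference 0.12, 95% interval -0.06 to 0.30, adjusted p = 0.227). At 40 °C against 37 °C the differences were 0.03 for JUNB (95% interval -0.13 to 0.19) and -0.07 for JUND (-0.21 to 0.08). Both probe sets carry the suffix _x_at, with which the maker marks sets whose probes can match other sequences too. The brightest probe sets of FOSB and FOSL1 carry it as well, and so do some dimmer ones of FOSL1, JUN and EGR1. Other probe sets of FOS, FOSL1, FOSL2, JUN and EGR1, among them the brightest of JUN, carry the suffix _s_at. Which sequences the probes of any set match was not examined here.

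EGR1, which binds GC-rich promoters and is among the first genes induced by phorbol ester, was lower at 40 °C on all 6 of its probe sets. On the brightest (11717860_a_at) the values were 9.39, 9.28 and 9.19 in 40 °C cells against 10.19, 10.25 and 10.22 in 37 °C cells. The groups did not overlap, and EGR1 was 1.91-fold lower (log2 difference -0.93, SE 0.06, adjusted p = 2.28e-05). The other bright probe sets gave closely similar sizes: 11752940_a_at had 8.47, 8.40 and 8.32 in 40 °C cells and 9.27, 9.29 and 9.25 in 37 °C cells, and 11754334_s_at had 9.22, 9.19 and 9.17 in 40 °C cells and 10.04, 10.11 and 10.05 in 37 °C cells, both 1.83-fold lower. The 3 dimmer ones fell less, by 0.20 to 0.68 on the log2 scale, and 2 of these calls, 11717861_a_at and 11751643_x_at, were lost when single arrays were left out (adjusted p up to 0.0911 and 0.110). By inhibitor, the brightest probe set of EGR1 had 11.13, 11.06 and 11.10 in thermomiR inhibitor cells and 10.95, 10.96 and 10.99 in control cells. These values did not overlap, but the difference of 0.13 missed the threshold (95% interval 0.003 to 0.26, adjusted p = 0.0894). Of the 6 probe sets, 11754334_s_at was called higher by inhibitor (0.23, adjusted p = 0.0449), a call lost whichever array was left out, and the dim 11717861_a_at was called lower (-0.45, adjusted p = 0.00426). The inhibitor difference exceeded the temperature difference by 1.06 on the brightest probe set (SE 0.08, adjusted p = 6.11e-07), but by 0.03 on the probe set of highest variance (adjusted p = 0.889).

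EGR3, a zinc finger factor of the same family, was measured by 1 probe set that moved with temperature and 3 that were not called. On the brightest (11736342_at) the values were 6.07, 5.97 and 6.14 in 40 °C cells against 7.22, 7.2 and 7.14 in 37 °C cells. EGR3 was thus 2.18-fold lower, without overlap (log2 difference -1.13, SE 0.06, adjusted p = 8.29e-06), the largest temperature difference of the 9 genes. The 3 other probe sets, all dimmer, differed by -0.02 to 0.11. In the inhibitor experiment the brightest had 6.76, 6.99 and 6.72 in thermomiR inhibitor cells against 6.45, 6.38 and 6.49 in control cells, 1.30-fold higher (log2 difference 0.38, SE 0.08, adjusted p = 0.00792). With the mean of its 4 probe sets, EGR3 was not called by inhibitor (0.11, adjusted p = 0.155). The inhibitor difference exceeded the temperature difference by 1.51 on the brightest probe set (SE 0.10, adjusted p = 4.23e-07).

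**Figure D3:**
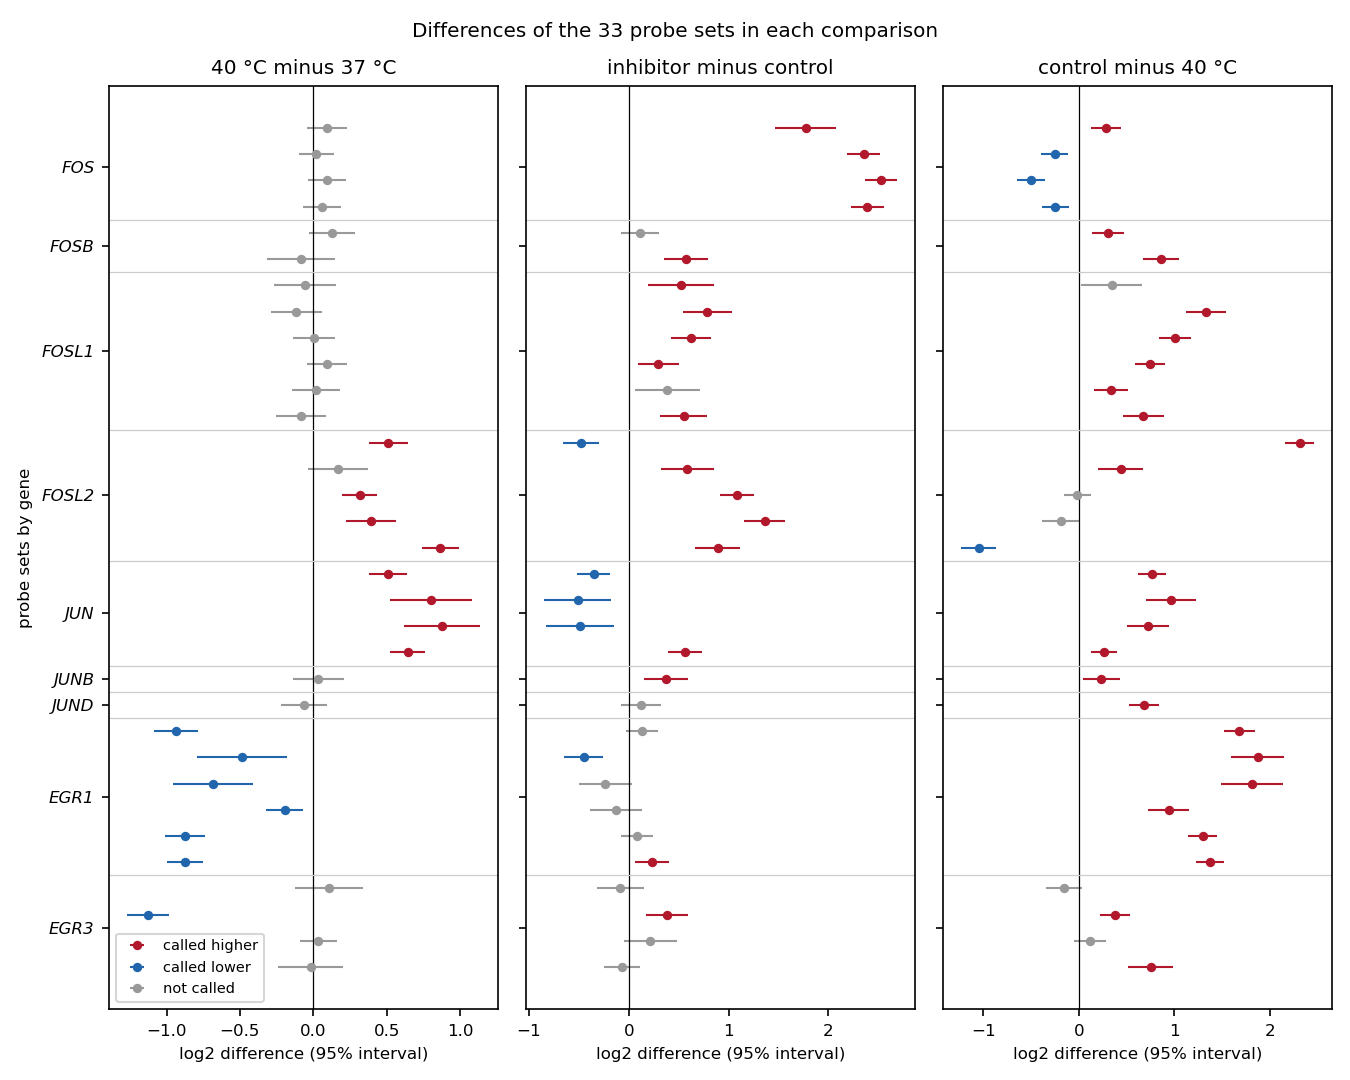
Log2 difference with its 95% interval (x axis) for each of the 33 probe sets (rows, grouped by gene). From left to right, the 3 panels show 40 °C minus 37 °C, thermomiR inhibitor minus control, and control minus 40 °C cells. All 4 FOS probe sets lie at 1.77 to 2.53 by inhibitor and near 0 by temperature, and all 6 EGR1 probe sets lie below 0 by temperature.

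Of the 9 genes, 5 differed between the 2 experiments by the test of the difference of differences (FOS, EGR3, EGR1, FOSL1 and JUNB), all with the inhibitor difference above the temperature difference. Among all genes 23.1% were called in that direction and 21.1% in the other. These calls are of the brightest probe sets. When every probe set was fitted, FOS was called on 4 of 4, FOSL1 on 4 of 6, EGR1 on 3 of 6 and EGR3 on 1 of 4. The only probe set of JUNB was not called in that fit (adjusted p = 0.0568). The JUNB value (0.34, SE 0.12, adjusted p = 0.0360) did not pass in 6 of the 12 fits that left out 1 array, with adjusted p of 0.0636 to 0.0864. FOSB, FOSL2, JUN and JUND did not pass on their brightest probe sets. With the mean of their probe sets FOSB (0.33, adjusted p = 0.0251) and FOSL2 (0.24, adjusted p = 0.0122) passed in the same direction. JUN passed in the other direction (-0.90, adjusted p = 5.68e-05), with the inhibitor difference below the temperature difference. For JUND the interval was -0.03 to 0.41.

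By the protocol, the control cells of the inhibitor experiment and the 40 °C cells share PMA and 40 °C and would differ in nucleofection, sorting and time, which cannot be told apart. The titles call the control cells WT, so whether these steps were applied to them is not stated, and each group is also part of one of the comparisons above. EGR1 was higher in the control cells on all 6 probe sets, with 10.95, 10.96 and 10.99 in control cells against 9.39, 9.28 and 9.19 in 40 °C cells on the brightest, 3.20-fold higher (log2 difference 1.68, SE 0.06, adjusted p = 1.43e-07). JUND was 1.61-fold higher in control cells, FOSL1 1.59-fold, EGR3 1.30-fold, FOSB 1.24-fold and JUN 1.2-fold. FOSL2 was 2.07-fold lower on its brightest probe set but 4.98-fold higher on 11731599_a_at, which had 8.46, 8.36 and 8.49 in control cells and 6.14, 6.07 and 6.15 in 40 °C cells. FOS was 1.19-fold lower on its brightest probe set, with 3 of its 4 probe sets called lower and 1 higher. In all, 7 genes were called higher and 2 lower, beside 36.9% and 37.9% of all genes, and 24 probe sets higher and 4 lower, beside 35.7% and 31.6%. Of the 34507 probe sets at or above the filter value, 13234 were called higher and 12379 lower in control cells. FOSL1 11760284_a_at, among the members called higher, was below the filter value in 40 °C cells (mean 4.31) and above it in control cells (5.06). The JUNB call (0.23, adjusted p = 0.0263) was lost in 4 of the 6 fits that left out 1 array and when arrays were centred on their medians (0.14, adjusted p = 0.142). The ACTB 3 prime minus 5 prime measure was 2.44 ± 0.09 in control cells and 1.58 ± 0.22 in 40 °C cells, and its part in these values was not tested.

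Set in order by the mean of the brightest probe set, FOS was highest in thermomiR inhibitor cells (11.71 ± 0.05), then 40 °C cells (9.61 ± 0.04), 37 °C cells (9.59 ± 0.03) and control cells (9.36 ± 0.03; SD, n = 3 each), with the 2 temperature groups overlapping. EGR1 ran from thermomiR inhibitor (11.10 ± 0.04) and control cells (10.97 ± 0.02) to 37 °C (10.22 ± 0.03) and 40 °C cells (9.29 ± 0.10), with no neighbouring groups overlapping. The genes whose values over the 12 arrays were most like those of FOS were ZFP36, which encodes an mRNA decay factor and is itself an immediate early gene (Pearson r = 0.997), CCT2 (0.993), MCRIP1 (0.992), NOP2 (0.991) and PHIP (0.989). For EGR1 they were MAP3K2 and FNBP4 (both 0.989), REEP3 (0.988), LACTB (0.986) and RANBP2 (0.980). These correlations describe 12 arrays in 4 groups and are carried by the differences between groups.

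Other basic leucine zipper factors that can pair with or compete with AP-1 members were described from a list of 12, of which 10 were tested. At 40 °C 5 rose and 1 fell, and in thermomiR inhibitor cells 1 rose and 5 fell, with medians of 0.26 and -0.22 against 0.01 and 0.09 over all genes. Of all genes tested, 21.6% were called higher and 17.7% lower at 40 °C, and 25.7% and 19.6% in thermomiR inhibitor cells. The same shares apply beside the counts of every list below. MAF, a macrophage differentiation factor, averaged 9.20 ± 0.04 at 40 °C and 8.12 ± 0.11 at 37 °C (2.12-fold higher, adjusted p = 1.39e-05), and 8.30 ± 0.18 in thermomiR inhibitor cells and 9.27 ± 0.09 in control cells (1.95-fold lower, adjusted p = 0.000267). ATF3, a stress-induced repressor, was 1.45-fold higher at 40 °C and 1.29-fold lower in thermomiR inhibitor cells. JDP2, a repressor that dimerizes with JUN, was 1.75-fold higher at 40 °C and 1.57-fold lower in thermomiR inhibitor cells. By the test of the difference between the 2 experiments 1 of 10 was called higher and 4 lower, beside 23.1% and 21.1% of all genes. MAF was at -2.05, ATF3 at -0.91, JDP2 at -1.46 and MAFF at -0.77, and ATF7 went the other way at 0.93 (adjusted p = 0.000635). ATF7 was also the one that fell at 40 °C, 2.58-fold, and MAFG the one that rose with the inhibitor, 1.25-fold.

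SRF and its cofactors, known to act at CArG boxes, were described from a list of 6, all tested. At 40 °C 3 fell and 1 rose (median -0.21), and in thermomiR inhibitor cells 3 rose and none fell (median 0.24). In control against 40 °C cells 4 fell and 2 rose (median -0.52), with SRF at -0.77 and ELK3 at -0.85 on the log2 scale. EGR1 was 3.20-fold higher in that comparison, and the part of SRF and its cofactors in the EGR1 values was not tested. SRF averaged 8.75 ± 0.02 at 40 °C and 9.04 ± 0.07 at 37 °C (log2 difference -0.29, adjusted p = 0.00226), and 8.66 ± 0.06 in thermomiR inhibitor cells and 7.98 ± 0.14 in control cells (0.68, adjusted p = 0.000534). ELK3, a ternary complex factor, differed by -0.54 by temperature and by 0.66 by inhibitor. MRTFB, an SRF coactivator, fell by 0.56 on the log2 scale at 40 °C, whereas ELK4 rose by 0.40, and MRTFA, another coactivator, rose by 0.28 in thermomiR inhibitor cells. The difference between the experiments was called for 4 of 6, all in 1 direction: ELK3 (1.21), SRF (0.97), MRTFB (0.75) and MRTFA (0.42). Of all genes, 23.1% were called in that direction and 21.1% in the other.

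Among the EGR relatives and co-repressors EGR4, NAB1, NAB2 and WT1, NAB2, which binds EGR proteins and limits their activity, rose in both experiments, by 0.35 at 40 °C (adjusted p = 0.00160) and by 0.48 in thermomiR inhibitor cells (adjusted p = 0.00179). NAB1, a related co-repressor, rose by 0.36 in thermomiR inhibitor cells and was not called by temperature. The other two were called in neither experiment.

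Textbook AP-1 target genes were described from a list of 14, of which 12 were tested: 3 rose and 7 fell at 40 °C (median -0.27), and 6 rose and 5 fell in thermomiR inhibitor cells (median 0.12). MMP9, a matrix metalloproteinase, averaged 10.82 ± 0.04 in thermomiR inhibitor cells and 8.90 ± 0.05 in control cells (3.80-fold higher, adjusted p = 2.42e-06), and was 1.61-fold higher at 40 °C. CXCL8, a neutrophil chemokine, averaged 5.52 ± 0.25 at 40 °C and 7.10 ± 0.09 at 37 °C (3.00-fold lower, adjusted p = 4.30e-05), and was 2.30-fold higher in thermomiR inhibitor cells. PLAU, the urokinase plasminogen activator, was 1.93-fold higher at 40 °C and 1.64-fold lower in thermomiR inhibitor cells. HBEGF, an EGF receptor ligand, was 1.39-fold lower at 40 °C and was not called by inhibitor. SPP1, which encodes osteopontin, was 1.69-fold lower in thermomiR inhibitor cells, and TIMP1, a metalloproteinase inhibitor, 1.68-fold higher. For EGR targets, 8 of 11 listed were tested, and 2 rose and 2 fell in each experiment. At 40 °C ICAM1, an adhesion molecule for leukocyte integrins, rose by 0.67 (adjusted p = 0.000461) and ID3, an inhibitor of helix-loop-helix factors, by 0.33 (adjusted p = 0.000986), and neither was called by inhibitor. TNF, an inflammatory cytokine, was 1.78-fold lower at 40 °C and 2.09-fold higher in thermomiR inhibitor cells, with 5.99 ± 0.03 at 40 °C and 6.82 ± 0.36 at 37 °C, and 7.16 ± 0.06 in thermomiR inhibitor cells and 6.09 ± 0.15 in control cells. F3, tissue factor, fell by 0.65 at 40 °C and by 0.98 in thermomiR inhibitor cells on the log2 scale. PDGFA, a growth factor, rose by 0.48 in thermomiR inhibitor cells, and CDKN1A, a cell cycle inhibitor, fell by 0.18. These genes answer to many other factors too, and binding of AP-1 or EGR proteins was not measured.

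**Figure D4:**
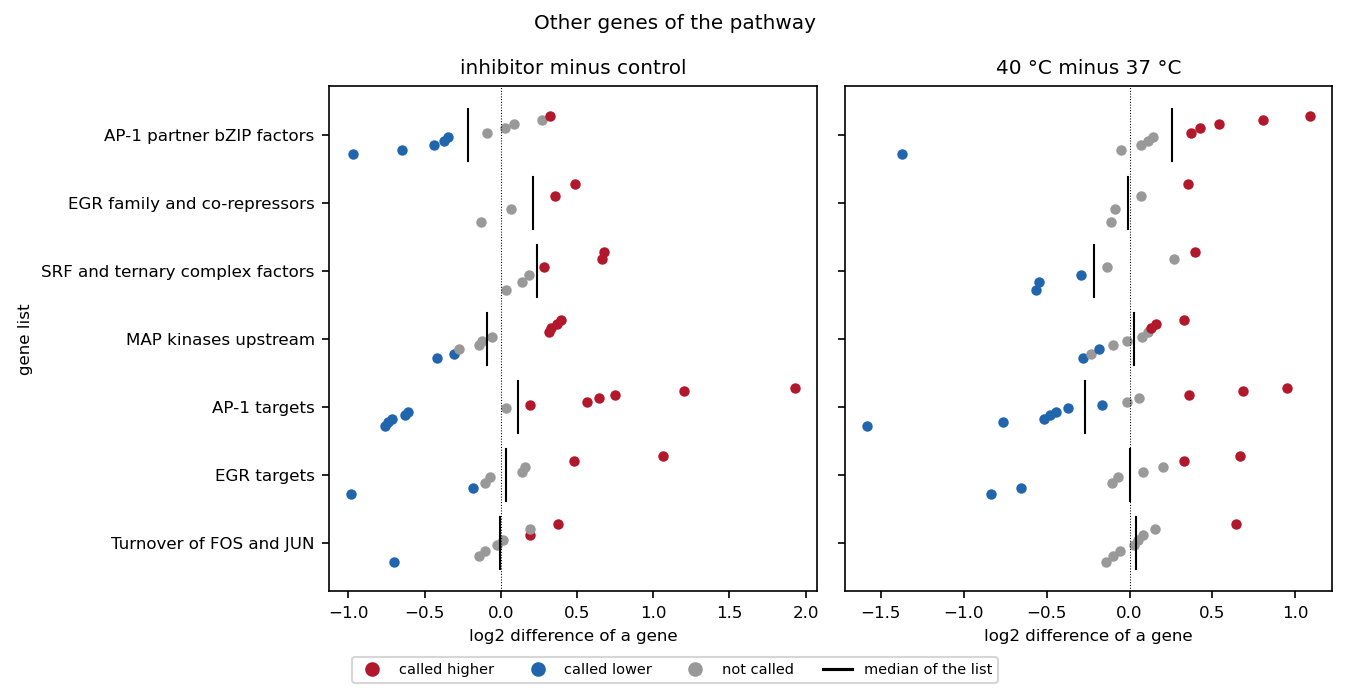
Log2 difference (x axis) of each tested gene in 7 lists of pathway genes (rows), for thermomiR inhibitor minus control cells (left) and 40 °C minus 37 °C cells (right); red points were called higher, blue lower and grey not called, and black bars mark list medians. The leucine zipper list has medians of -0.22 (left) and 0.26 (right), and the SRF list 0.24 and -0.21.

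As a check of the cell type, all 9 macrophage and monocyte markers were at or above the filter value in every group, and the mean of the list per array was 8.45 to 8.61 in thermomiR inhibitor cells, 9.18 to 9.24 in control cells, 9.41 to 9.53 at 40 °C and 9.27 to 9.29 at 37 °C. By inhibitor 1 marker rose and 6 fell, and by temperature 6 rose and 2 fell. LYZ, which encodes lysozyme, was 5.07-fold lower in thermomiR inhibitor cells. In a bulk sample, fewer cells of a type and less RNA per cell cannot be told apart, and the part of these marker differences in the values of the AP-1 and EGR genes was not tested. The means per array of the lists of other cells were 5.90 to 6.62 for T and natural killer cells, 5.95 to 6.60 for B cells, 5.30 to 6.05 for the erythroid list and 4.07 to 4.47 for epithelium and fibroblasts over all groups. List means hide single markers that differ from their list. Group means were 9.50 to 11.36 for GNLY and 8.62 to 9.12 for PAX5, a B cell marker. Those of the macrophage markers SPI1 and CD163 were 5.42 to 6.12 and 5.30 to 6.27. In the T and natural killer list, NKG7 was higher in thermomiR inhibitor cells and GNLY lower, and in the epithelium and fibroblast list KRT8 was higher, while at 40 °C GNLY alone of all these was called, as higher.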

How the data were processed

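Labelled RNA of 12 THP-1 samples, 3 in each of 4 groups assigned by title and treatment label, was hybridised to PrimeView arrays. The deposited table holds log2 expression values, a unit read from the values themselves. How the authors corrected background, normalized and summarised them, with what software and build, is not given in the sources used here. Probe sets took their symbols from a gene table of the platform, and all 33 member probe sets kept their symbol in a current RefSeq table. Each comparison was fitted alone with limma 3.58.1 in R 4.3.3 (lmFit, eBayes, two-sided; residual degrees of freedom 4), with Benjamini-Hochberg adjustment over everything tested and a threshold of 0.05. Each gene was represented by its brightest probe set over 12 arrays among those with 1 symbol, and 13909 of 18132 genes reached the 30th percentile of mean values; probe sets were fitted without a filter. The difference of differences used all 12 arrays (residual degrees of freedom 8). Folds are powers of differences of mean log2 values. For 3 arrays against 3 the smallest exact permutation p is 0.1, so none was run. The procedure was also run on simulated data whose noise was independent between arrays, which need not hold here, and no result rests on that run.

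The members and lists were chosen with earlier results of these data known. The rule for named genes took every member, up to 4 called genes of each list by p (given here for temperature and inhibitor, and for the other comparisons in part), and the 5 genes most correlated with FOS and with EGR1. Alternatives were a joint fit, the replicate number as a block, quantile normalization, median centring, eBayes with trend and robust, array weights, a poly-A spike covariate, other filters, other choices of probe set and leaving out each array. Same-numbered arrays did not deviate together (r = -0.13, -0.10 and 0.23 by temperature, and -0.19, -0.60 and -0.15 by inhibitor), so the numbers were not taken as pairs. Array medians were 5.72 to 5.87, replicates of a group correlated at r = 0.994 to 0.998, and no 2 arrays were identical. Figures were drawn with Python 3.11.15 and matplotlib 3.10.9. A few listed genes without a usable probe set are not analysed here.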

Additional observations from a re-analysis of the deposited data

How the results depend on the processing

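Of 653 values of single genes under an alternative, 590 kept their direction and their side of the threshold, 11 newly passed it, 23 no longer did and 29 changed sign, 9 of them where a value was called; of 1386 values of single probe sets these numbers were 1260, 17, 83, 26 and 0. With the poly-A spike covariate, the members called by inhibitor numbered 1 gene, against 6, and 3 probe sets, against 23, and by temperature 8 probe sets, against 15. Over all features, calls by inhibitor fell to 43 higher and 158 lower of 13909 genes (from 3568 and 2722) and to 43 and 154 of 49293 probe sets (from 7317 and 7469), and by temperature to 1088 and 1809 probe sets (from 6314 and 5794). The spike level differs between inhibitor and control groups without overlap, so the covariate and the group are poorly separated. By inhibitor the median SE over all genes rose to 0.221 with the covariate, from 0.079. When all probe sets of a gene were averaged, the difference between the experiments was called for 8 genes (7 higher and 1, JUN, lower), against 5. Over all genes it was called for 2780 higher and 2979 lower of 12716, against 3208 and 2936 of 13909. The choice of probe set turned signs: JUN by inhibitor was -0.20 with the mean and -0.51 with the most variable probe set, FOSL2 and EGR1 by inhibitor were -0.48 and -0.45 with the most variable, FOSL2 in control against 40 °C cells was 0.30 with the mean and 2.32 with the most variable, and between the experiments FOSB was 0.33 and 0.66 and FOSL2 -0.99 with the most variable. Leaving out single arrays gave 4 genes in every fit by temperature, 6 in every fit by inhibitor, 8 to 9 in control against 40 °C cells and 4 to 5 between the experiments, and 13 to 14, 17 to 23 and 27 to 29 probe sets for the first 3. With the replicate number as a block, 4 genes were called by temperature and 6 by inhibitor, as without it, and 8 of 9 in control against 40 °C cells, where JUNB was lost (adjusted p = 0.0549). EGR1 by inhibitor passed under quantile normalization (0.17, adjusted p = 0.0282), trend and robust, and array weights, and JUND passed with array weights (0.24, adjusted p = 0.00787); the causes were not tested. Dim probe sets of FOSL1 and EGR3, near the filter value, limit what can be read there.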

Other observations

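Genes upstream of the members and genes of FOS and JUN protein turnover were also described by list. Beside both lists, 21.6% of all genes were called higher and 17.7% lower at 40 °C, and 25.7% and 19.6% in thermomiR inhibitor cells. Of 15 MAP kinase pathway genes listed, 10 were tested: 3 rose and 2 fell at 40 °C (median 0.03), and 4 rose and 2 fell in thermomiR inhibitor cells (median -0.09). MAP2K3, a kinase that activates p38, rose by 0.33 at 40 °C (adjusted p = 0.00567) and by 0.37 in thermomiR inhibitor cells (adjusted p = 0.00216), and MAP2K1, which activates ERK kinases, rose by 0.16 at 40 °C and by 0.33 in thermomiR inhibitor cells. RPS6KA1, a kinase downstream of ERK, fell by 0.42 in thermomiR inhibitor cells, and RPS6KA3, a related kinase, fell by 0.28 and MAP2K4, which activates JUN N-terminal kinases, by 0.19 at 40 °C. MAPK7, the kinase ERK5, rose by 0.40 in thermomiR inhibitor cells.

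Of 8 turnover genes, all tested, 1 rose at 40 °C, and 2 rose and 1 fell in thermomiR inhibitor cells. ITCH, a ubiquitin ligase known to target JUN proteins, averaged 8.92 ± 0.14 in thermomiR inhibitor cells and 9.62 ± 0.07 in control cells (1.62-fold lower, adjusted p = 0.000505), and the difference between the experiments was called (-0.73, adjusted p = 5.56e-05). GSK3A, a kinase, was 1.30-fold and DET1, part of a ubiquitin ligase that targets JUN, 1.14-fold higher in thermomiR inhibitor cells, and USP28, a deubiquitinase, was 1.56-fold higher at 40 °C. Arrays measure transcripts, so protein levels and phosphorylation were not observed.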
